A study of Mus musculus with 2 samples.

Results

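Dermomyotome progenitors of the E9.5 mouse somite were taken here as cells that hold transcripts of both Pax3 and Meox1 and lack those of the neighbouring states. Each had at least 2 UMIs (unique molecular identifiers, 1 per captured transcript) of Pax3 and at least 2 of Meox1. None had a UMI of Sox2 (neural tube), Myf5 (committed muscle) or Lbx1 (migrating limb muscle precursors), and the UMIs of the segmentation genes Pcdh8, Ripply2, Cer1 and Dll3 summed to less than 3. Of 9851 cells kept from the E9.5 library, 568 met this rule, which is 5.77% (exact 95% binomial interval 5.31 to 6.24%). The members were thus selected on the UMI counts of these 9 genes in the same cells, so the levels of those genes describe the choice and are no finding.

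The data came from interlimb somites of wild-type C57BL/6 embryos, with 3 embryos pooled at E9.5 and another 3 at E11.5, dissociated with trypsin and sequenced as 1 droplet library per age. At E9.5 there were 10121 barcodes with 149368952 UMIs in all, and cells with at least 200 and fewer than 6500 genes and under 15% mitochondrial UMIs were kept. Since 1 pool of embryos stands behind each age and cells are not replicates, no difference could be tested, and the intervals given cover counting error only. The pool was not split by embryo, so differences between the 3 embryos cannot be told apart from differences between cells.

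A somite is an epithelial block of paraxial mesoderm that splits into a ventral sclerotome, the source of vertebrae and ribs, and a dorsal epithelial sheet, the dermomyotome. Pax3 keeps dermomyotome cells alive and proliferating, and the sheet feeds the myotome through cells that switch on Myf5 and the limbs through cells that switch on Lbx1. Wnt and Bmp signals from the dorsal neural tube and surface ectoderm, and Hedgehog from notochord and floor plate, pattern the sheet.

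The 568 progenitors held 9922491 UMIs, from 2247 to 51179 a cell with a median of 15441.5, against a median of 12278 in the 9283 remaining cells. Levels are given as UPM, the UMIs of a gene per 1000000 UMIs of a class, a scale on which the same gene can be compared between classes. Of 1975 cells with at least 2 Pax3 UMIs, 1205 also had at least 2 of Meox1. Among these, 346 had Myf5, 186 had Sox2, 125 had Lbx1 and 71 reached the sum of 3 for the segmentation genes, and a cell could be left out on more than 1 ground. Cells just inside and just outside the thresholds are given here as a description. The 170 members with exactly 2 Pax3 UMIs had Dmrt2 at 48.7 and Tcf15 at 345 UPM. The 252 cells with 1 Pax3 UMI that met the rest of the rule had them at 34.1 and 305. Pax1, a sclerotome gene, stood at 32.5 (25.9 to 40.2) just inside and 76.8 (68.0 to 86.4) just outside. For Meox1, the 36 members with exactly 2 UMIs had Tcf15 at 253 UPM, and the 28 cells with 1 had it at 128. The intervals of Pax1 at the Pax3 threshold and of Tcf15 at the Meox1 threshold did not overlap. Those of Dmrt2 and of Tcf15 at the Pax3 threshold did. At the Meox1 threshold, Dmrt2 stood at 59.3 (40.0 to 84.6) just inside and 71.9 (47.8 to 104) just outside. Pax1 was at 25.7 (13.7 to 43.9) and 5.14 (0.622 to 18.6) there. Both pairs of intervals overlapped, and both genes went against the direction seen at the Pax3 threshold.

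Before the results, the label was checked with 2 markers that the rule did not use. Tcf15 (paraxis, a bHLH factor needed for somites to become epithelial) was found in 93.0% of the progenitors, with a lowest value of 0, a median of 6 and a highest of 41 UMIs a cell. Dmrt2, a DM-domain transcription factor of the dermomyotome, was found in 54.2%, with a median of 1 and a highest of 14. Free RNA gives some UMIs to cells that do not make a transcript, so 222 endothelial cells (at least 1 UMI each of Cdh5 and Pecam1, median depth 16277 UMIs) served as the background of these shares. They held Tcf15 in 45.9% and Dmrt2 in 1.35% of cells. With every cell thinned to 5000 UMIs, which left out 1 progenitor and 6 endothelial cells, Tcf15 was in 76.4% against 17.6%. Dmrt2 was then in 30.2% of the progenitors and in 0 of 216 endothelial cells, which allows a share of up to 1.39% (3 cells of 216). Both markers stood above this background at full and at equal depth. Endothelial cells lie outside the somite, so this check does not set the progenitors apart from other somite cells. Against 371 UPM in the progenitors, Tcf15 was at 390 in cells with Myf5 and 260 in sclerotome cells, classes described below. Dmrt2 was at 80.6 UPM in the progenitors, 86.7 in cells with Myf5 and 0.502 in sclerotome cells.

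The label did not hold for every member. In 26 of the 568 (4.58%, exact 95% interval 3.01 to 6.64%) the neural crest genes Sox10, Foxd3 and Erbb3 summed to at least 3 UMIs, a split made after the values were seen. Neural crest cells also carry Pax3. These 26 cells had a single Dmrt2 UMI among them, or 1.69 UPM (0.0428 to 9.43), against 85.6 in the other 542. Tcf15 stood at 32.1 against 393, Meox2 at 5.08 against 116 and Fst at 35.5 against 223 UPM. Sim1, Uncx, Pax7 and 2610016A17Rik were at 0. Sox10, the crest and glial factor, one of the genes of the split, was found in 26 of the 26 at 184 UPM, against 0.536 over the other 542. Tfap2b, another crest factor and not part of the split, was in 26 of 26 at 249 UPM, against 2.46. Their depth was greater, with a median of 22970 UMIs against 15163.5, and 4 of them against 28 of the others were called doublets by Scrublet; the part of doublets in these values was not tested. The progenitors without a UMI of either Dmrt2 or Tcf15 numbered 31 (5.46%), and 18 of these were among the 26. In these markers the 26 went against the label. They are called cells with crest markers here, and results that rest on them are given with and without them.

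**Figure D1:**
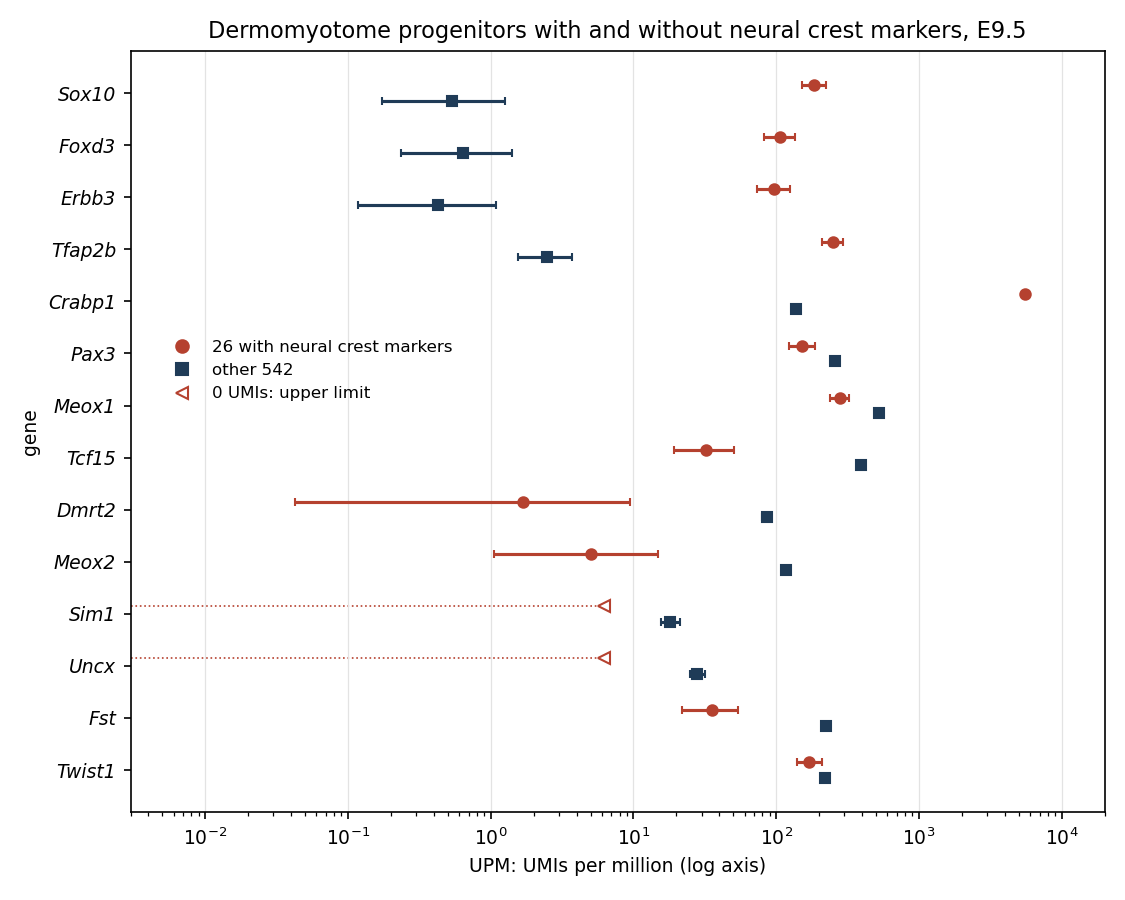
Levels in UPM (log axis) of 14 genes in the 26 members with neural crest markers (circles) and in the other 542 (squares), with exact 95% Poisson intervals; open triangles with dotted lines mark upper limits for genes with 0 UMIs. Sox10, Foxd3, Erbb3, Tfap2b and Crabp1 lie to the right in the 26, and Dmrt2, Tcf15, Meox2, Sim1, Uncx and Fst lie to the left.

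Apart from the upper limit of genes, no doublets were removed. The caller Scrublet marked 5.63% of the progenitors (3.89 to 7.86%) and 5.61% of the remaining cells. The 2 libraries shared 30 barcodes, of which 0 were progenitors. Globin UMIs totalled 1983 in the progenitors, and 1816 of them (91.6%) lay in 1 cell, a doublet call, with 6 in the next.

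The question put to the whole library was which genes set the progenitors apart from the remaining cells. The remaining cells include myotome, sclerotome, neural tube, vessel and blood, so the contrast is with a mixture. Genes were compared where their pooled level predicted at least 50 UMIs in the smaller class, and a gene was counted at a ratio of at least 2. A gene low in one class can reach this minimum through the other class alone, so the counts of list members are a description of the genes compared. Of 9211 genes compared, 39 were higher in the progenitors, which is 0.423%, and 305 were lower, which is 3.31%. The rule itself fixed Pax3 and Meox1 among the higher genes and Sox2, Myf5, Pcdh8 and Dll3 among the lower ones, and 7 of the lower genes were globins. The median log2 ratio over the compared genes was -0.03.

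Dmrt2 had the highest ratio, and other transcription factors of the somite were among the 39. Dmrt2 had 800 UMIs in the progenitors, or 80.6 UPM (75.1 to 86.4) against 10.9 (10.3 to 11.5), a log2 ratio of 2.89 (2.76 to 3.01). Sim1, a bHLH-PAS factor known from the lateral dermomyotome, stood at 17.03 against 4.40 UPM (log2 ratio 1.95, 1.70 to 2.20). Tcf15 was at 371 against 119 UPM (1.65, 1.59 to 1.70). The progenitors thus held several times the mixture's level of each. Eya1, a transcriptional co-activator of muscle progenitors, had a log2 ratio of 1.07. Meox2, the close relative of Meox1, was at 110 against 39.4 UPM (1.48). Uncx, a homeobox factor of the posterior part of each somite, was at 26.4 against 7.84 (1.75, 1.55 to 1.95). Sclerotome cells alone had Uncx at 25.8 UPM, a log2 ratio of 0.04 (-0.26 to 0.33). Of the 14 dermomyotome regulators listed for this work, 10 had enough UMIs to be compared, 6 were higher and 0 lower, with a median log2 ratio of 1.27. Of all genes compared, 0.423% were higher and 3.31% lower. The 4 compared regulators below the ratio of 2 were Six4 (log2 ratio 0.55), Foxc1 (0.55), Itm2a (0.20) and Zic1 (-0.12). Against Myf5 cells, 10 of the 14 were compared, 0 were higher and 2 lower, with a median of -0.15.

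Genes of secreted and membrane proteins were also among the 39. Grem1, a Bmp antagonist, stood at 23.0 against 7.95 UPM (log2 ratio 1.53, 1.32 to 1.74), and Fst, which binds activins, at 212 against 78.8 (1.43). Myf5 cells alone had Fst at 253 UPM, a log2 ratio of -0.25 (-0.36 to -0.14). Wnt16, a Wnt ligand, was at 13.2 against 4.70 (1.49), and Shisa2, which holds Wnt and Fgf receptors inside the cell, at 45.9 against 16.2 (1.50). Ism1, a secreted protein, was at 19.2 against 5.19 UPM (1.89). Fgf8 (log2 ratio 1.36), Fgf18 (1.11), the repulsive guidance cue Sema3a (1.35) and the guidance cue Ntn1 (1.03) were also among the 39. Fap, a membrane serine protease, was at 23.9 against 6.11 UPM (1.97), Col13a1, a transmembrane collagen, at 14.1 against 4.63 (1.61), and Cp, the copper-carrying ferroxidase ceruloplasmin, at 17.1 against 5.01 (1.77). Plch1, a phospholipase C, had 985 UMIs and stood at 99.3 against 29.3 (1.76).

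**Figure D2:**
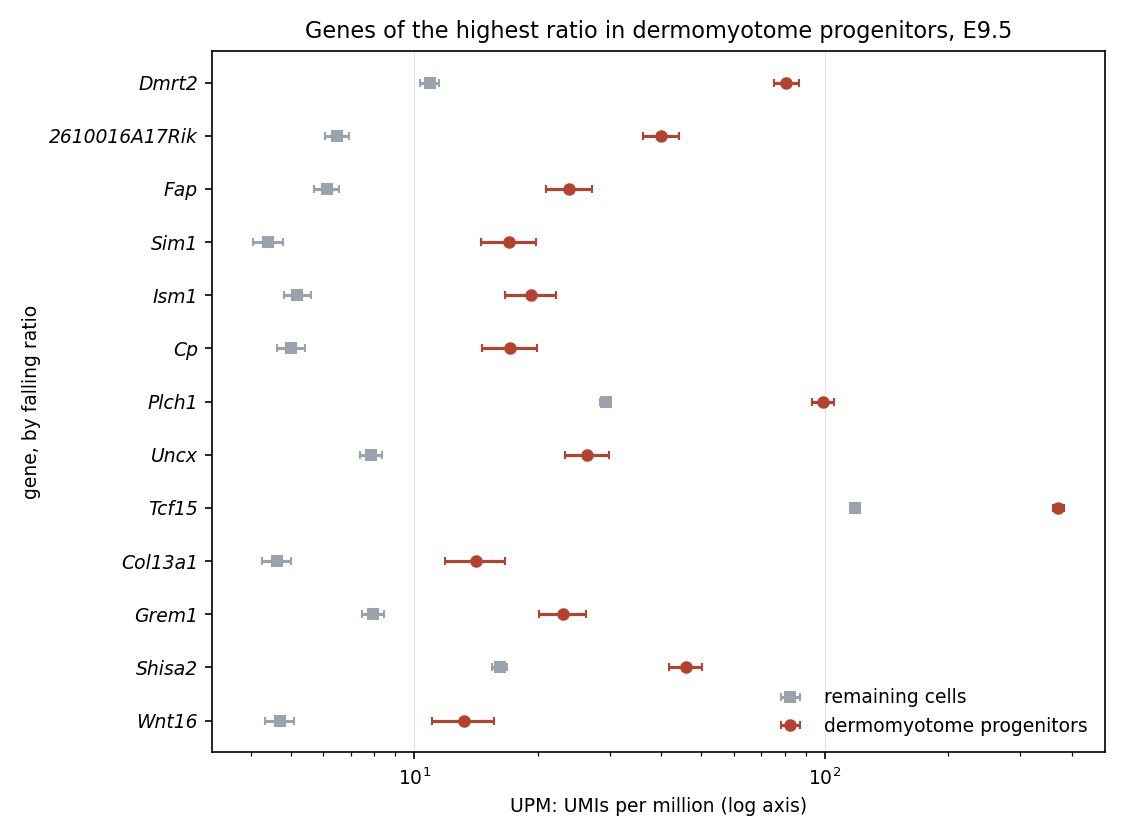
Levels in UPM (log axis) of 13 of the 15 genes with the highest ratio, outside the rule's own genes, in dermomyotome progenitors (circles) and remaining cells (squares), with exact 95% Poisson intervals. Dmrt2 is farthest apart, at 80.6 against 10.9, and none of the 13 pairs of intervals overlaps.

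The transcript next to Dmrt2 in ratio was also its neighbour in the genome. 2610016A17Rik, annotated as an antisense transcript, stood at 40.0 against 6.48 UPM (log2 ratio 2.63, 2.45 to 2.80). In GENCODE on GRCm38 (mm10) Dmrt2 lies at chr19:25672411-25678991 on the plus strand and 2610016A17Rik at chr19:25671134-25672253 on the minus strand, so their starts lie 158 bases apart, point away from each other and do not overlap. In the progenitors, 171 cells had both transcripts, 137 had Dmrt2 alone, 67 had 2610016A17Rik alone and 193 had neither. Dmrt2 was thus present in 71.8% of the cells with 2610016A17Rik. It was present in 54.2% of the progenitors as a whole, which include those cells. Among the cells without 2610016A17Rik, 137 had Dmrt2 and 193 did not. Both shares move with depth. In the remaining cells the same 4 counts were 301, 275, 201 and 8506. The RefSeq promoter window of Dmrt2 (GRCm38.p6, chr19:25672161-25672460, plus strand, 250 bases before its start and 50 after) spans the gap between both starts and is shown because both transcripts are read away from it. The 157 bases between the starts are in capitals.
Dmrt2 window: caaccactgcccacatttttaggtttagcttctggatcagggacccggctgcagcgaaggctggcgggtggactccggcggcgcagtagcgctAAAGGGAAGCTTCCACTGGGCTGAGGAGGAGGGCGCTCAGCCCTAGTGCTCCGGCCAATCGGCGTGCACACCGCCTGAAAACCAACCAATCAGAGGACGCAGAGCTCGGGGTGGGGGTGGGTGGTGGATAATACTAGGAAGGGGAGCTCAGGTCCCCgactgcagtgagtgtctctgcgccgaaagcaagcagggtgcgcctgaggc
The window is 62.7% G or C. Its 2 matches to the CCAAT box (CCAAT, both strands) start at bases 148 and 179, counted from 1 at its first base, and both lie between the starts. CCAAT was found in 37.4% of the 32851 RefSeq windows of this length, which cover 27025 genes. Of the 15 genes of highest ratio, 10 had a matched window, and 7 of these 10 had CCAAT in at least 1 window. A share of genes is not on the scale of a share of windows. Dmrt2 and 2610016A17Rik were both among the 7, with starts 158 bases apart, so the same sites may be counted for both. No match was found for the E-box CANNTG (72.3% of windows), the Tcf/Lef core CTTTGA (16.0%), the MEF3 site TCAGGTT (4.07%) or the homeodomain core TAATTA (5.29%), which says only that these letters are not in this window. Among the 10 matched genes, these motifs were found in 7, 2, 0 and 1. The motifs were searched on both strands, and in the Dmrt2 window no other motif overlapped CCAAT.

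The genes of lowest ratio included genes of neural tube, floor plate and blood. Rmst, a neural long noncoding RNA, had 1 UMI in the progenitors against 1642 in the remaining cells (log2 ratio -6.97, -12.28 to -4.49). Shh, the Hedgehog ligand of notochord and floor plate, had 1 against 1283 (-6.62, -11.92 to -4.14), and Foxa2, which marks the same tissues, 2 against 1390 (-5.73, -8.78 to -3.88). The neural factors Olig3, Nkx6-2 and Pou3f3, with 1, 1 and 3 UMIs, Scube2, which helps release Shh, with 2, and Pf4 of platelets and macrophages with 1 were also among the 10 lowest. With 1 to 3 UMIs each, the intervals of these ratios were wide.

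In the 9 lists of signalling pathways, 82 genes were compared with the mixture, 2 were higher (2.44%, against 0.423% of all genes) and 14 lower (17.1%, against 3.31%). Of the Notch receptors and ligands, 6 of 8 were compared, 0 were higher and 1, Jag1, was lower (log2 ratio -1.24), and the median was -0.37. Among Notch targets and modifiers, 9 of 12 were compared, 0 were higher and 3 lower (Hes5 -3.85, Mfng -2.44, Nrarp -1.85), with a median of -0.07. Wnt ligands and receptors had 11 of 16 compared, 0 higher and 1 lower (Wnt4, -3.32), with a median of -0.01. For Wnt targets and antagonists the counts were 11 of 15, 0 and 1 (the antagonist Sfrp1, -1.04), with a median of -0.23, and the Wnt-responsive Lef1 stood at 0.27. Of the Hedgehog genes 10 of 12 were compared, 0 higher and 1 lower (Shh), with a median of 0.11, while the co-receptors Boc (0.96), Cdon (0.72) and Gas1 (0.71) lay above 0 and the receptor and target Ptch1 (-0.95) and the target Gli1 (-0.75) below. Bmp ligands, receptors and antagonists had 8 of 14 compared, 2 higher (Grem1 and Fst) and 1 lower (Bmp7, -1.16), with a median of 0.09. Bmp targets had 7 of 7 compared, 0 higher and 2 lower (Msx2 -1.995, Msx1 -1.75), with a median of -0.07, and Id2 at 0.64. Fgf receptors and feedback genes had 10 of 12 compared, 0 higher and 2 lower (the receptors Fgfr3 -3.48 and Fgfr2 -1.29), with a median of 0.03, while the feedback inhibitor Spry1 stood at 0.89. Of the retinoic acid genes, 10 of 12 were compared, 0 higher and 2 lower (the degrading enzyme Cyp26b1 -2.12 and the receptor Rarb -1.36), with a median of -0.29.

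Lists of structure, division and position were counted in the same way, beside 0.423% of all genes higher and 3.31% lower. Epithelial structure and matrix had 16 of 17 compared, 0 higher and 1 lower (the filament protein Vim, log2 ratio -1.12), with a median of -0.06, and the laminin chain Lama5 stood at 0.95 and Lamb1 at 0.55. Of the S phase genes 20 of 20 were compared, and of the G2 and M phase genes 19 of 19, with 0 at a ratio of 2 and medians of -0.10 and -0.03. Genes of cell cycle exit and D cyclins had 7 of 8 compared, 0 called, and a median of -0.27. In cells thinned to 5000 UMIs, the progenitors had a median of 14 S phase and 15 G2 and M phase UMIs, and the remaining cells 15 and 15. Hox genes had 26 of 39 compared, 0 called and a median of 0.00. Among the other somite lists, muscle differentiation had 4 of 14 compared and 2 lower (the cardiac actin gene Actc1 -1.39 and the factor Mef2c -1.02; median -0.87), migration of muscle precursors 5 of 6 and 1 lower (the chemokine receptor Cxcr4 -1.05; median -0.26) and sclerotome 10 of 12 and 3 lower (Pax1 -1.48, Pax9 -1.41, Sox9 -1.34; median -0.16). Somite polarity had 4 of 5 compared and 1 higher (Uncx; median -0.09), and segmentation 4 of 13 compared and 1 higher (Fgf8; median -0.25).

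Markers of other tissues are given by their summed levels, progenitors first and remaining cells second. Neural markers summed to 27.6 against 262 UPM, with Tubb3 the most abundant at 90 of 274 UMIs. Endothelial markers summed to 43.7 against 146, with 299 of 434 UMIs being Egfl7. Red blood cell markers summed to 201 against 4925 UPM, and 1 cell held 1822 of their 1991 UMIs. White blood cell markers had 3 UMIs, with Tyrobp at 0. The most in any 1 cell was 86 UMIs for the endothelial and 47 for the neural markers. Surface ectoderm markers summed to 9.47 against 54.9 (Krt18 47 of 94 UMIs). Lateral plate markers summed to 44.2 against 96.8 (Prrx1 332 of 439 UMIs). Intermediate mesoderm markers summed to 13.8 against 42.3 (Osr1 41 of 137 UMIs). Notochord markers had 8 UMIs, or 0.806 against 22.1 UPM, with Noto at 0. Neural crest markers summed to 55.4 against 57.4 UPM. Without the 26 cells with crest markers they summed to 10.5 (8.53 to 12.8). This sum holds Sox10, Foxd3 and Erbb3, which defined those cells, so part of the fall was fixed by the split. Tfap2b gave 170 of 550 UMIs. Of those 170, 147 lay in the 26 cells with crest markers. Of the remaining cells, 4.73% met the same sum of 3.

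Set beside the other classes of the library, the progenitors were nearest to the Myf5 cells in Dmrt2 and Tcf15, and lay between the Myf5 and Lbx1 cells in Meox2. The classes were 88 newly formed somite cells (segmentation sum of at least 3, with Meox1) and 178 Myf5 cells (at least 2 Myf5 UMIs, with Meox1). There were also 108 Lbx1 cells (at least 2 Lbx1 UMIs, with Pax3) and 417 sclerotome cells (Pax1 and Pax9 without Pax3). A further 610 were dorsal neural cells (at least 2 UMIs each of Sox2 and Pax3). Newly formed somite cells were also required to lack UMIs of Sox2, Myf5 and Lbx1. Myf5, Lbx1 and sclerotome cells were required to lack UMIs of Sox2. Dmrt2 was at 86.7 UPM (77.8 to 96.3) in Myf5 cells and 80.6 (75.1 to 86.4) in the progenitors, intervals that overlap. It followed at 30.0 in Lbx1 cells, 25.7 in newly formed somite cells, 9.73 in dorsal neural cells, 1.21 in endothelial cells and 0.502 (0.103 to 1.47) in sclerotome cells. Of these neighbours in order, Lbx1 and newly formed somite cells, and endothelial and sclerotome cells, had overlapping intervals. Tcf15 had another order. It stood at 711 UPM in newly formed somite cells, 390 in Myf5 cells, 371 in the progenitors, 279 in Lbx1 cells, 260 in sclerotome cells, 63.5 in dorsal neural cells and 53.9 in endothelial cells. The intervals of Myf5 cells and progenitors overlapped (371 to 410 and 359 to 383), as did those of Lbx1 and sclerotome cells. Meox2 was at 117 in Myf5 cells, 110 in the progenitors, 104 in Lbx1 cells and 95.8 in sclerotome cells, and at 44.1 in newly formed somite cells. Intervals of neighbours overlapped among the first 4 of these classes. Sim1 was highest in Lbx1 cells at 33.9 (26.4 to 43.0), then at 17.6 (11.3 to 26.2) in newly formed somite cells, 17.03 (14.6 to 19.8) in the progenitors and 13.0 (9.73 to 17.1) in Myf5 cells, the last 3 overlapping in order, and at 2.34 in sclerotome cells. Pax7, the second Pax gene of muscle progenitors, had 4.64 UPM in the progenitors, 7.26 in Myf5 cells and 7.01 in dorsal neural cells.

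**Figure D3:**
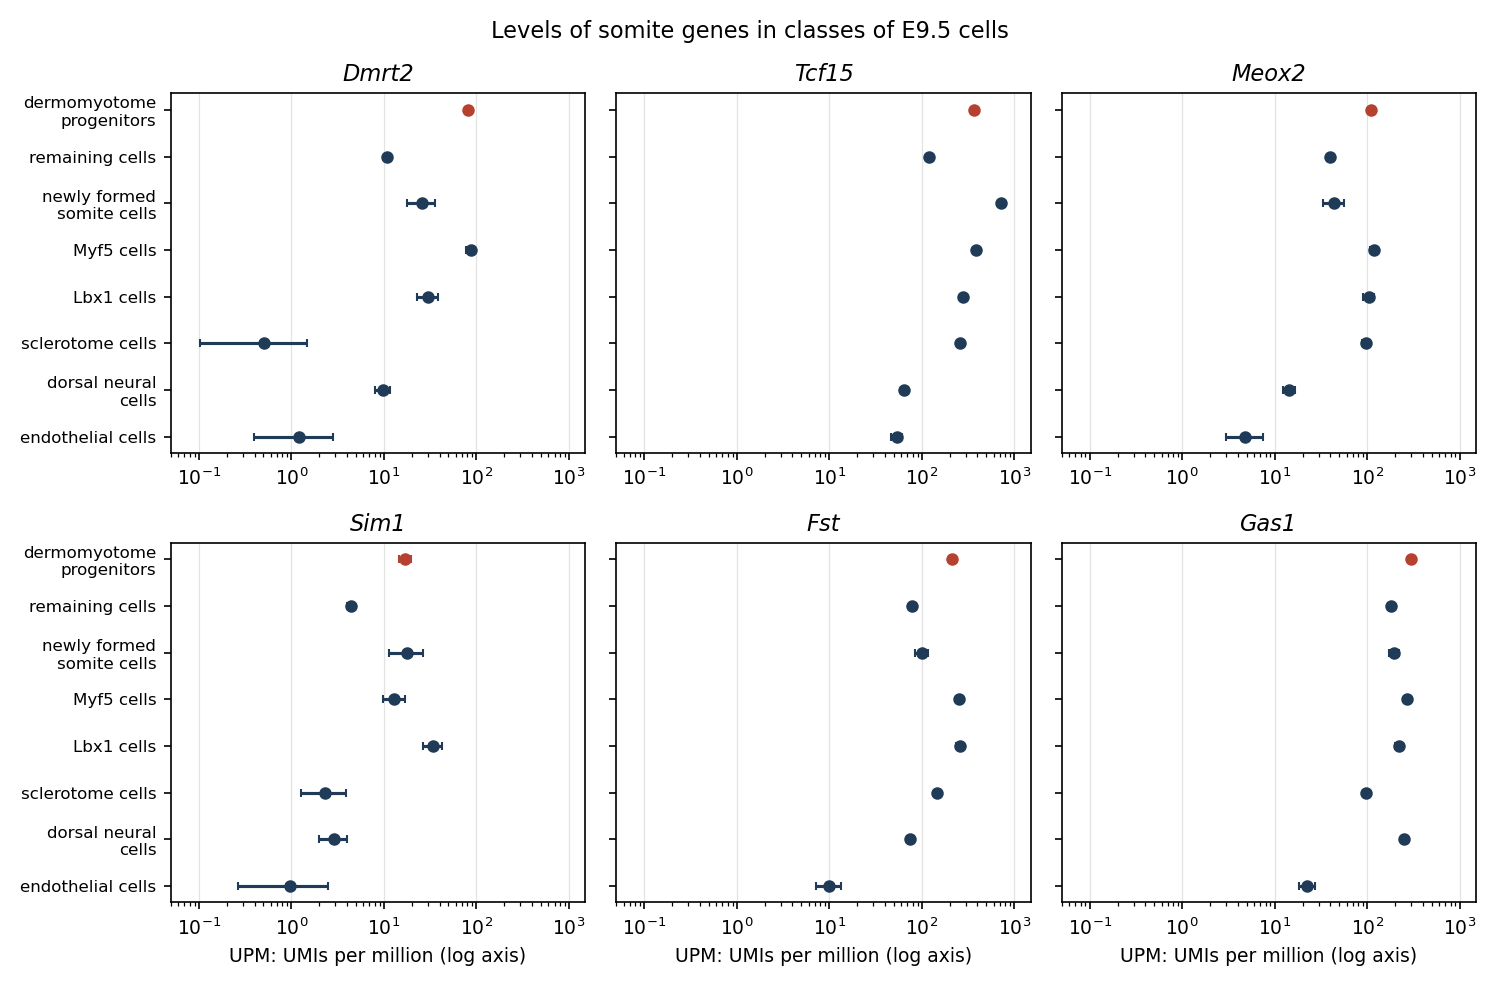
Levels in UPM (log axis) of 6 genes outside the rule in 8 classes of E9.5 cells, with exact 95% Poisson intervals; progenitors in red, other classes in blue. Dmrt2 spans from 0.502 in sclerotome cells to 86.7 in Myf5 cells, while Tcf15 stays at or above 53.9 in each class.

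Newly formed somite cells are the step before, and the contrast asked which genes differ once segmentation genes are gone. Of 3737 genes compared, 42 (1.12%) were higher in the progenitors and 40 (1.07%) lower, and Ripply2 among the lower was fixed by the rule. Of the 42, 2 were globin genes, and 1 progenitor held 91.6% of the globin UMIs. Sema3a was at 64.5 against 8.81 UPM (log2 ratio 2.87, 2.06 to 3.83), the fibrillar collagen gene Col1a2 at 65.0 against 10.3 (2.66, 1.90 to 3.54) and Itga6, a laminin receptor subunit, at 53.9 against 9.54 (2.50, 1.71 to 3.42). Peg10, an imprinted gene derived from a retrotransposon, was at 67.5 against 15.4 (2.13), and Grrp1 at 50.4 against 12.5 (2.01). Of the 17 genes of epithelial structure and matrix, 11 were compared, 1 was higher (Itga6) and 1 lower (Fn1). Of the dermomyotome regulators, 6 of 14 were compared, 3 were higher (Dmrt2 1.65, Meox2 1.32, Itm2a 1.26) and 0 lower. Tcf15 went the other way within a ratio of 2, and the list summed to 901 UPM in the progenitors and 1139 in newly formed somite cells. The Bmp targets Id2 and Id3, inhibitors of bHLH factors, were at 331 against 83.7 (1.98) and 557 against 170 (1.72) UPM, 2 of the 3 compared. Dlk1, an atypical Notch ligand, was at 165 against 47.0 (1.81), and the D cyclin Ccnd2 at 369 against 132 (1.48).

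The 5 genes of lowest ratio to newly formed somite cells were Pcdh19, Notch1, Ifitm1, Fgf18 and Lef1. Pcdh19, a protocadherin, was at 22.0 against 240 UPM (log2 ratio -3.45, -3.70 to -3.20), and the receptor Notch1 at 33.3 against 317 (-3.25, -3.46 to -3.04). Ifitm1, an interferon-induced membrane protein, stood at 122 against 831 (-2.77, -2.89 to -2.66), Lef1, the nuclear partner of beta-catenin, at 63.9 against 387 (-2.60) and Fgf18 at 26.1 against 176 UPM. Few members of the pathway lists had enough UMIs to be compared. In the 9 lists 29 genes were compared, 5 higher (17.2%, against 1.12% of all genes) and 5 lower (17.2%, against 1.07%). Of 3 Notch receptors and ligands, 2 were lower and 1, Dlk1, higher, and of 2 Notch targets 0 were called. Of 4 Wnt ligands and receptors 1 was lower (median 0.04), of 3 Wnt targets and antagonists 1, and of 3 Fgf receptors and feedback genes 1. Notch2 (-1.26), Wnt5a (-1.07), the receptor Fgfr1 (-1.59), the matrix protein Fn1 (-1.46), the ephrin receptor Epha4 (-2.28), Foxc2 (-1.81) and Hoxb7 (-1.23) were also lower. Newly formed somites lie caudally: 90.9% of their cells had at least 2 UMIs summed over the Hox9 and Hox10 genes, against 48.6% of the progenitors. The mix of sexes differed as well. Xist, made by female cells, was in 39.8% (29.5 to 50.8%) of newly formed somite cells and 69.4% (65.4 to 73.1%) of the progenitors, and Y-linked transcripts in 54.5% and 30.8%, and the part of sex or embryo in these ratios was not tested. Between cells with these Hox UMIs in both classes, an alternative chosen after seeing the data, 33 genes were higher and 34 lower of 3587 compared. In these cells Ifitm1 was at 222 against 847 UPM (log2 ratio -1.93, -2.06 to -1.81) and Fgf18 at 43.5 against 177 (-2.02, -2.30 to -1.75), smaller gaps than over all cells. Between cells without them only 133 genes could be compared, and 0 reached a ratio of 2 in either direction.

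Myf5 cells are the step after, the first committed muscle cells. Of 6767 genes compared, 8 (0.118%) were higher in the progenitors and 61 (0.901%) lower, with Myf5 itself fixed by the rule and 5 globins among the lower. Of the 2799 globin UMIs of the Myf5 cells, 2746 lay in 1 cell. The count of lower genes fell between cells with Hox9 and Hox10 UMIs in both classes, as given with the processing. Myog, the factor of terminal muscle differentiation, had 6 UMIs in the progenitors, or 0.605 against 98.2 UPM (log2 ratio -7.34, -8.80 to -6.21). The sarcomere genes Tnnc2 (fast troponin C, -6.74), Acta1 (skeletal actin, -6.47), Ttn (titin, -5.58) and Actc1 (cardiac actin, 3.73 against 133 UPM, -5.15) were the next lowest. The 14 muscle differentiation genes summed to 48.8 against 604 UPM, and those that could be compared included the desmin gene Des (-2.18), the myosin light chain Mylpf (-4.35), the cadherin Cdh15 (-2.66) and the factor Mef2c (-2.36). Of the fusion genes, named after their values were seen, the myomaker gene was at 0 UMIs in the progenitors and 27 in Myf5 cells, and the myomixer gene at 1 and 34.

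Of the genes of cell cycle exit and D cyclins, 5 were compared and 2 were lower than in Myf5 cells. Of all genes compared, 0.901% were lower. Cdkn1a stood at 8.47 against 109 UPM (log2 ratio -3.68, -4.04 to -3.34) and Cdkn1c at 186 against 970 (-2.39, -2.47 to -2.31), both inhibitors of cyclin-dependent kinases. The D cyclins Ccnd1 (0.08), Ccnd2 (0.03) and Ccnd3 (-0.63) stayed within a ratio of 2, and the inhibitor Cdkn1b, below the minimum of UMIs, was at 11.6 against 11.3 UPM. The S phase and G2 and M phase lists had 0 genes at a ratio of 2, with medians of 0.11 and 0.06. Zic1 (-1.56), the membrane protein Itm2a (-1.26), Wnt6 (-2.10), the Wnt target Sp5 (-1.30), the retinoic acid enzyme Aldh1a2 (-1.53), the retinol receptor Stra6 (-1.22) and Fgf8 (-1.04) were lower in the progenitors than in Myf5 cells. On the higher side, Hoxa9 was at 22.4 against 4.26 UPM (2.39, 1.68 to 3.20) and Hoxc9 at 22.7 against 6.76 (1.75, 1.17 to 2.38), with 33.1% of Myf5 cells in the class with Hox9 and Hox10 UMIs. Twist2, a bHLH factor of dermis and mesenchyme, was at 22.8 against 8.02 (1.51, 0.97 to 2.09). The other 2 named genes rested on the 26 cells with crest markers. Tfap2b was at 17.1 against 4.01 UPM (2.10), and without those cells the log2 ratio was -0.70 (-1.68 to 0.32). Crabp1, a carrier of retinoic acid, was at 458 against 151 (1.60), and without them the log2 ratio was -0.13 (-0.27 to 0.01). Between cells with Hox9 and Hox10 UMIs in both classes, the log2 ratio was -6.51 for Myog, -7.14 for Acta1, -5.83 for Actc1, 0.29 for Tfap2b and 0.35 for Crabp1.

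Sclerotome is the ventral part of the somite. The classes differed in their posterior Hox genes, with Hox9 and Hox10 UMIs in 25.4% of the sclerotome cells (21.3 to 29.9%) against 48.6% (44.4 to 52.8%) of the progenitors. Of 7828 genes compared, 90 (1.15%) were higher in the progenitors and 110 (1.41%) lower, with Pax3, Pax1 and Pax9 fixed by the rules of both classes and 4 globins among the lower. Of the 4252 globin UMIs of the sclerotome cells, 4150 lay in 1 cell. The counts of higher and lower genes fell between cells with Hox9 and Hox10 UMIs in both classes, as given with the processing. Dmrt2 had 3 UMIs in 417 sclerotome cells, giving a log2 ratio of 7.33 (5.78 to 9.61), and 2610016A17Rik a ratio of 4.73 (3.79 to 5.87). Grem1 was at 23.0 against 1.00 UPM (4.52, 3.37 to 5.98), Plch1 at 99.3 against 11.7 (3.08) and Sim1 at 17.03 against 2.34 (2.86). Dmrt2 was therefore the widest gap between these dorsal and ventral cells among the named genes. Tfap2b had 1 UMI in sclerotome cells (6.68, 4.18 to 11.99), and without the 26 cells with crest markers its ratio was 3.88 (1.26 to 9.25).

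In the 9 lists of signalling pathways, 64 genes were compared with sclerotome cells. Of these, 13 were higher (20.3%, against 1.15% of all genes) and 5 lower (7.81%, against 1.41%). Hedgehog genes split between the dorsal and the ventral class. Of 9 compared, 4 were higher in the progenitors: Gas1 at 295 against 97.0 UPM (log2 ratio 1.61, 1.48 to 1.74), Boc (1.96), Cdon (1.61) and Gli3, the Gli factor best known as a repressor (1.14). The 2 lower ones were Ptch1, at 40.5 against 134 (-1.73, -1.91 to -1.56), and Gli1 (-1.51), both direct targets of the pathway. Bmp targets had 5 compared and 3 higher, Id2 (1.72), Id3 (1.45) and Msx1 (1.04). Spry1 (2.01), Sp5 (2.43), Fgf8 (1.19), Itga6 (1.30) and Lama5 (1.41) were higher as well. Crabp2, a second retinoic acid carrier, was at 474 against 84.3 UPM (2.49), while Aldh1a2, which makes retinoic acid, was at 70.7 against 232 (-1.71). Of the sclerotome genes other than Pax1 and Pax9, which the class rule used, 8 were compared and 4 were lower, among them Sox9, the chondrogenic factor (34.9 against 217, -2.64), the mesenchymal factor Twist1 (216 against 591, -1.45) and Snai1 (-1.29). The matrix genes Lum (2.62 against 54.5 UPM, -4.38, -5.02 to -3.80) and Col3a1 (34.1 against 261, -2.94) and the atypical cadherin Fat4 (-3.27) were among the 5 lowest outside the class rules. The mesenchymal cadherin Cdh11 was at -1.94 and the Notch target Heyl at -2.76. AI646519, at -3.07, overlaps Pax1 on the other strand, and counts of the pair cannot be told apart from the sources used here. Of 23 Hox genes compared, 6 were higher. Between cells with Hox9 and Hox10 UMIs in both classes, the log2 ratio was 3.79 for 2610016A17Rik, 3.74 for Grem1, 2.49 for Plch1, -2.77 for Lum and -1.999 for Col3a1.

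**Figure D4:**
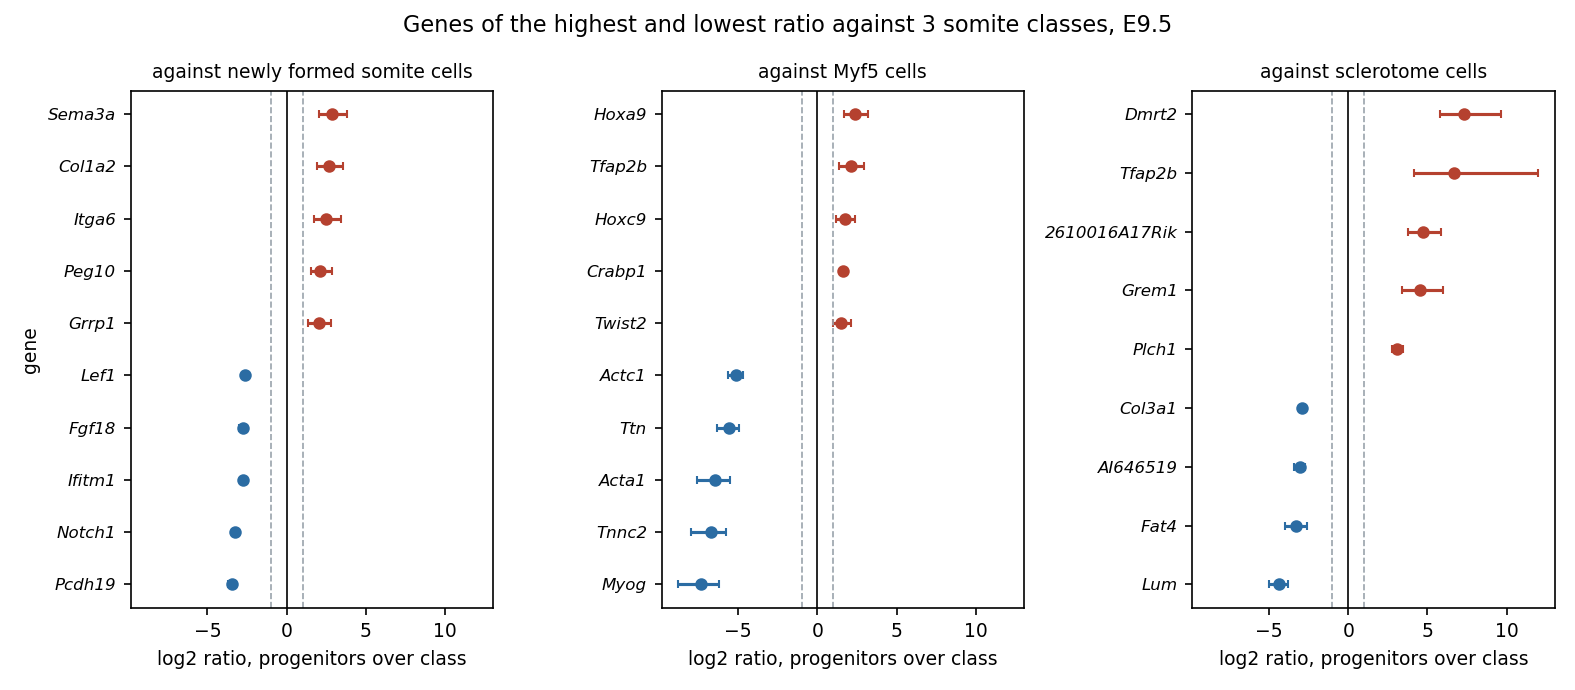
Log2 ratio of dermomyotome progenitors to newly formed somite, Myf5 and sclerotome cells (x axis) for genes among the 5 highest and 5 lowest of each contrast, outside the genes of the class rules, with exact 95% intervals; dashed lines mark a ratio of 2. Myog at -7.34 and Dmrt2 at 7.33 are the extremes, and the values of Tfap2b and Crabp1 against Myf5 cells rest on the 26 members with crest markers.

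Among the progenitors themselves, cells were first split by posterior Hox genes, which follow position along the body. At least 2 UMIs summed over Hoxa9, Hoxb9, Hoxc9, Hoxd9, Hoxa10, Hoxc10 and Hoxd10 were found in 276 progenitors (48.6%), 251 had 0 and 41 had 1. The share was 38.1% in the remaining cells, 25.4% in sclerotome cells and 12.0% in Lbx1 cells. Median depths were 15962.5 and 15346 UMIs. Of 6865 genes compared between the 276 and the 251, outside the genes used, 37 (0.539%) were higher with Hox9 or Hox10 and 25 (0.364%) lower. Hoxc8 was at 96.5 against 3.32 UPM (log2 ratio 4.86, 4.10 to 5.75) and Hoxa7 at 147 against 5.92 (4.64, 4.06 to 5.27). Ifitm1 was at 222 against 14.2 (3.96, 3.59 to 4.36). The gap in Ifitm1 was thus of the order of that in the neighbouring Hox genes. Frzb, a secreted Wnt antagonist, was at 24.6 against 2.13 (3.53, 2.56 to 4.69), and Hoxb5os, an antisense transcript of the Hoxb cluster, had a ratio of 3.24. Notch1 was at 45.5 against 21.3 (1.09).

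Fewer genes were higher in the progenitors without these Hox UMIs, and the gap of Crabp1 rested in large part on the cells with crest markers. Of the 26, 17 were on this side and 7 on the other. Crabp1 was at 183 with Hox9 or Hox10 and 782 without (log2 ratio -2.09), and with the 26 left out the ratio was -0.62 (-0.79 to -0.45). Tfap2b went from -1.97 to -1.74 (-3.39 to -0.32). Zic1 was at 16.7 against 57.1 UPM (-1.77), Dlk1 at 118 against 222 (-0.91), Apoe, the lipid carrier, had a ratio of -1.82 (-1.98 without the 26) and Npr3, a natriuretic peptide receptor, -1.81 (-1.72). The dermomyotome markers differed little by comparison, with Dmrt2 at 73.1 against 90.3 UPM (-0.30) and Tcf15 at 386 against 366 (0.08). Sex differed between both sides: Xist was in 54.3% (48.3 to 60.3%) of the 276 and 85.7% (80.7 to 89.7%) of the 251, and Y-linked transcripts in 47.8% and 13.1%. Embryo of origin, which sex partly marks, was not resolved. Among the 117 and 206 cells with Xist and no Y-linked UMI, a comparison chosen after seeing the data, the ratio was 3.92 for Ifitm1, -1.80 for Zic1, -0.95 for Dlk1 and 0.83 for Notch1.

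**Figure D5:**
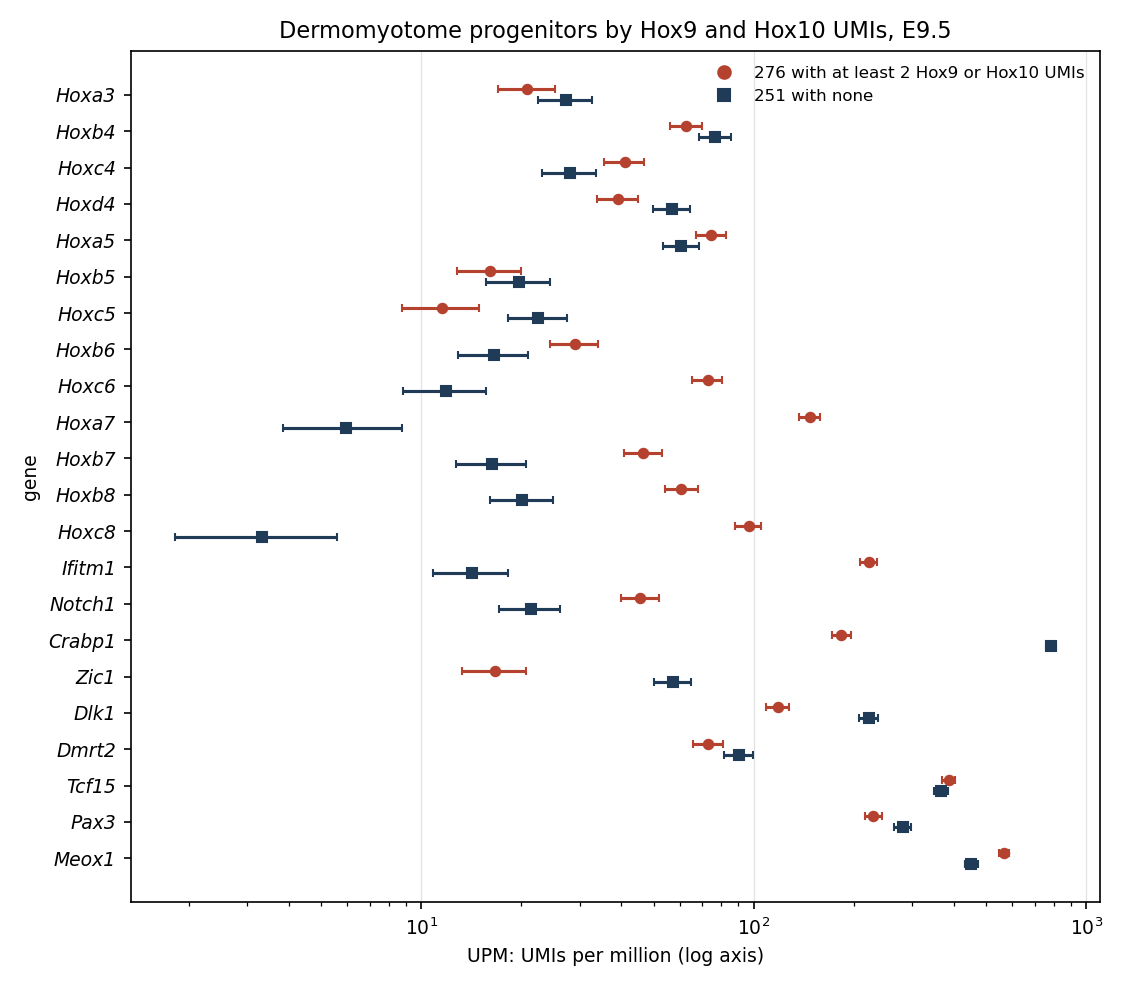
Levels in UPM (log axis) of Hox genes of groups 3 to 8 and other named genes in the 276 progenitors with at least 2 Hox9 or Hox10 UMIs (circles) and the 251 with none (squares), with exact 95% Poisson intervals. Hoxa7, Hoxc8 and Ifitm1 are the widest apart, Tcf15 is at 386 against 366, and the gap of Crabp1 rests in large part on the cells with crest markers.

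Polarity genes split some of the progenitors. Uncx without Tbx18 was found in 125, Tbx18 (an anterior factor) without Uncx in 78, both in 12 and neither in 353, and after thinning to 5000 UMIs the counts were 56, 26, 1 and 484. Of the 222 endothelial cells, the background used above, 0.450% had an Uncx and 1.80% a Tbx18 UMI, against 24.1% and 15.8% of the progenitors. In thinned cells the shares were 0 of 216 (up to 1.39%) and 0.463% against 10.1% and 4.76%. A cell with no UMI may still make either transcript. Igfbp5, which binds Igf ligands, was at 201 UPM in the Uncx cells and 51.9 in the Tbx18 cells (log2 ratio 1.95, 1.59 to 2.34), and Plxna2, a semaphorin receptor subunit, at 54.7 against 15.3 (1.83, 1.16 to 2.58). Sema3a (1.04), Tfpi (0.99) and 2610016A17Rik (0.87) followed. In the Tbx18 cells, Crabp1 (-1.77, or -1.11 without the cells with crest markers), Eva1b (-0.86), Nrp2, another semaphorin co-receptor (-0.83), Twist1 (-0.82) and Lmo4 (-0.80) were higher. Of 3722 genes compared, 3 were higher and 1 lower at a ratio of 2. The shares with Hox9 and Hox10 UMIs were 60.8% and 61.5%.

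Cells with Pax7 and with Sim1 were compared with the others in the same way. Pax7 was in 0 of 222 endothelial cells, which allows up to 1.35%, and Sim1 in 1.80%. Pax7, found in 39 progenitors at a median depth of 17215 UMIs, went with Igfbp5 at 277 against 112 UPM (log2 ratio 1.31, 1.10 to 1.52), the galectin gene Lgals1 (0.91), the kinase gene Rps6ka3 (0.85), Sema3a (0.84) and the pseudogene Rpl9-ps6 (0.84), whose reads may belong to its parent gene. Ifitm1 (-2.25), Prrx2 (-1.42), Hoxb5os (-1.34) and Hoxa7 (-1.19) were lower with Pax7, as was Crabp1 (-3.21, or -1.46 without the cells with crest markers). Of the Pax7 cells 28.2% had Hox9 and Hox10 UMIs, against 50.1% of the others. Sim1, found in 125 progenitors at a median depth of 16803 UMIs, went with the adhesion protein gene Flrt2 (0.87, 0.48 to 1.25), Spry1 (0.78), Sema3a (0.77), Grem1 (0.77) and Map4k5 (0.73). Zic1 was at 9.47 in the Sim1 cells and 48.0 UPM in the others (-2.34, -3.02 to -1.73), and Sparcl1 (-1.53), Hoxc9 (-1.31), Cthrc1 (-1.09) and Crabp1 (-2.98, or -1.12 without the cells with crest markers) were also lower. Zic1, known from the medial somite, thus stood low in the cells with Sim1, known from the lateral somite. En1, a factor of the central dermomyotome at later ages, had UMIs in only 3 progenitors. In these comparisons 1 gene was higher and 7 lower of 2467 with Pax7, and 0 higher and 6 lower of 5324 with Sim1.

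The spread between cells was compared with counting noise. Over 567 progenitors thinned to 5000 UMIs, the median ratio of variance to mean was 1.03 across 3481 genes, where 1 is counting noise. The ratio was at least 1.5 in 60 of them (1.72%), a limit set after the values were seen. Crabp1 had the largest ratio at 34.5, and 15.8 in the 541 cells left without the cells with crest markers, and 71.6% of its UMIs lay in the 26. It had a lowest value of 0, a median of 1 and a highest of 386 UMIs a cell. Dqx1 (5.32), Golga3 (4.31), Tmsb4x (4.14), Actb (3.72), Malat1 (3.65), Ifitm1 (2.95), Hspa8 (2.77) and Xist (2.70) were also among the 10 largest. Ifitm1 and Xist are thus among the 10 most uneven genes, as are abundant transcripts of the actin-binding thymosin Tmsb4x, the actin gene Actb, the nuclear RNA Malat1 and the chaperone gene Hspa8.

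The same rule was applied to the E11.5 library, which had 9595 kept cells, for the genes named at E9.5. It found 94 cells. Of the 15 highest genes, 13 were above and 2 below the remaining cells of that library, and for 11 the interval lay above 0, with a median log2 ratio of 1.53, while 48.2% of the 4887 genes compared there were above 0. Dmrt2 was at 81.8 against 27.2 UPM (1.59, 1.34 to 1.83), Tcf15 at 188 against 98.8 (0.92) and Grem1 at 45.5 against 12.0 (1.92). Uncx (-0.35, -1.16 to 0.35) was 1 of the 2 below. Of the 10 lowest genes, 8 had 0 UMIs in the 94 cells, and Pou3f3 had 8. For 3 of the 10 the interval lay below 0. For 5 of the 8 at 0 it reached above 0, so these zeros carry little weight. Pax7 stood at 40.3 UPM there and En1 at 79.6 with 140 UMIs, against 3 cells with En1 at E9.5. The muscle factor Myod1 was at 89.8 UPM with 158 UMIs (log2 ratio 0.44) and Myog at 67.6 with 119 (-1.51). The E9.5 progenitors had 2 UMIs of Myod1 and 6 of Myog. Stage and library cannot be told apart, so these values stand side by side only.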

How the data were processed

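Somite cells of 1 library per age were captured with a 10x Genomics droplet kit, and the authors deposited whole-number UMI counts per gene and barcode. The submitters' processing notes name Cell Ranger 3.0.1 and mm10; how strand was used in counting is not given in the sources used here. Counts of the 27998 genes were read without further normalization, and cells with at least 200 and fewer than 6500 genes and under 15% mitochondrial UMIs were kept, 9851 of 10121 barcodes. The E9.5 library held 149368952 UMIs and the E11.5 library 136655763, with medians of 12462 and 12479 UMIs per kept cell.

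UMIs were summed per class and divided by the class total. A gene was compared when its pooled level predicted at least 50 UMIs in the smaller class and was called at a ratio of at least 2. Poisson intervals of levels, conditional binomial intervals of ratios and Clopper-Pearson intervals of shares are exact at 95% (scipy 1.17.1) and cover counting error only. For a share of 0, 3 counts gave the limit. No test was run, since each age is 1 library. For shares and spread, each cell was thinned to 5000 UMIs. The interval code was checked on simulated counts with 200 genes changed. Doublets were called with Scrublet (scanpy 1.11.5) as an alternative only. Named genes were the 15 highest and 10 lowest against the remaining cells, the 5 highest and 5 lowest against each of 3 classes and on each side of each split, the 10 most uneven, and members of the gene lists, leaving out rule, mitochondrial and globin genes. Some genes that these rules name are not reported here. Positions came from GENCODE M21 on GRCm38 and promoter windows from RefSeq on GRCm38.p6, which matched 10 of the 15 highest genes. Members, lists and comparisons were chosen with earlier results of these data known. Alternatives changed the UMI minimum, doublets, gene minimum, denominator, centring, cell weighting, depth, expected UMIs and ratio.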

Additional observations from a re-analysis of the deposited data

Results flagged for a closer look

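Among the 270 barcodes of the E9.5 library removed by the gene and mitochondrial limits, 6 met the gene part of the rule for dermomyotome progenitors (2.22%, exact 95% interval 0.820 to 4.77%). They are a signal in data that no comparison used. All 6 had at least 6500 genes, and their median depth was 66452.5 UMIs, against 15441.5 in the progenitors. Whether they are doublets was not tested.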

How the results depend on the processing

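The 8 counts of higher and lower genes stayed within 1.5 times under a minimum of 1 or of 3 UMIs, leaving out Scrublet calls, a floor of 1000 genes, both other scalings and, added after seeing the data, without the members with crest markers. A minimum of 1 UMI each of Pax3 and Meox1 gave 871 members. Counts in the order higher and lower, against remaining, newly formed somite, Myf5 and sclerotome cells, were 16 and 92, 14 and 9, 3 and 8, and 34 and 56 after thinning to 5000 UMIs, where fewer genes had enough UMIs. They were 76 and 892, 264 and 165, 111 and 168, and 285 and 254 from 10 expected UMIs on, and 111 and 521, 98 and 113, 47 and 137, and 220 and 253 at a ratio of 1.5. With each cell weighted equally, 14 genes were higher than in Myf5 cells. Between cells with Hox9 and Hox10 UMIs, added after seeing the data, 152 were lower than in remaining and 19 lower than in Myf5 cells, and 27 higher and 22 lower than in sclerotome cells. Between cells without them, 23 were higher and 178 lower than in remaining cells, 0 and 0 than in newly formed somite cells and 34 lower than in Myf5 cells. Beyond fewer cells and genes, the cause was not tested. Without the members with crest markers, the log2 ratio to Myf5 cells turned from 2.10 to -0.70 for Tfap2b and from 1.60 to -0.13 for Crabp1. No called ratio to the remaining cells changed sign; 228 of 261 named ratios and 128 of 160 ratios between subgroups moved by less than their counting interval, while 42 of 50 shares of cells moved by more once thinned or counted from 2 UMIs on. No paired analysis was possible because each age is 1 library. With 1 pool per age, spread between embryos is unknown, and intervals are too narrow for it.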

Other observations

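Besides Crabp1, the genes of the most uneven counts among the progenitors included Dqx1, a helicase-like gene, and Golga3, a Golgi protein gene. Dqx1 was at 0 in 500 of the 568 progenitors, and the 26 cells with at least 5 UMIs held 83.4% of its 441 UMIs, with a highest value of 26. For Golga3, 25 cells with at least 5 UMIs held 54.5% of the UMIs. The cells with at least 5 UMIs were mostly separate, with 1 cell shared by Dqx1 and Golga3. Such cells made up 3.78% and 2.77% of the remaining cells for Dqx1 and Golga3, so the unevenness was not limited to the progenitors. What these cells share was not tested.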
